A study of Mus musculus with 14 samples.

Results

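The broad L3mbtl1 peaks at single expressed genes are 470 of the 4677 peaks that the authors listed for L3mbtl1 in mouse hippocampus. They were selected on measured values. A member is at least 1500 bp wide, overlaps the 2000 bp on either side of an end of exactly 1 protein-coding gene (RefSeq, GRCm38.p6, the assembly of mm10), and that gene has a mean of at least 1 CPM (gene counts scaled to a common library total) over 4 control cultures. The 470 peaks lie at 459 genes, which are 3.46% of the 13256 expressed coding genes. The peak list came from ChIP-seq of hippocampus of mice aged 7 to 8 days after birth on a C57BL6/129 background, with 3 wild-type and 3 L3mbtl1-/- samples. Chromatin had been crosslinked with DSG and formaldehyde and cut with micrococcal nuclease. A single list stands for all 6 samples, so a peak could not be compared between genotypes or between replicates, and the samples are whole tissue with all its cell types. The expression data came from 8 wild-type C57BL6 primary hippocampal cultures, prepared at postnatal day 0 to 1 and kept 14 days in vitro. Of these, 4 received 0.1% DMSO for 15 h (CTRL, the solvent control) and 4 received 100 µM picrotoxin for 15 h (PTX). Picrotoxin closes the chloride channel of GABA-A receptors and with it most fast inhibition, so that the cultured network fires more. Chromatin and RNA were thus taken from different preparations, ages and strain backgrounds.

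L3mbtl1 is a chromatin reader. Its MBT domains bind lysines of histone tails that carry 1 or 2 methyl groups, and the protein has been described as compacting nucleosomes and repressing transcription. In mammals most promoters of broadly expressed genes lie in CpG islands, stretches in which the dinucleotide CG is not depleted, and many chromatin proteins occupy such islands over a kilobase or more rather than at a point. The width of a peak therefore describes how far along the chromatin the antibody signal exceeded the caller's limit, and it says nothing by itself on whether the gene is on or off.

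Start sites under the broad peaks can be read from RefSeq promoter records (GRCm38.p6). The 250 bases before the start are shown for 6 member genes whose start lies inside the peak, 5′ to 3′ on the strand of the gene, with each CG dinucleotide in capitals. Among the genes with a covered start they were taken for the broadest peak (Fosl2, chr5:32136222-32136471, plus strand), the best score (Supt20, chr3:54692855-54693104, plus strand), the largest rise under PTX (Sdf2l1, chr16:17132384-17132633, minus strand), the largest fall (Tppp, chr13:74009169-74009418, plus strand), and the highest (Hmgxb4, chr8:74993400-74993649, plus strand) and lowest (Rdx, chr9:52046900-52047149, plus strand) ratio of observed to expected CG.
Fosl2: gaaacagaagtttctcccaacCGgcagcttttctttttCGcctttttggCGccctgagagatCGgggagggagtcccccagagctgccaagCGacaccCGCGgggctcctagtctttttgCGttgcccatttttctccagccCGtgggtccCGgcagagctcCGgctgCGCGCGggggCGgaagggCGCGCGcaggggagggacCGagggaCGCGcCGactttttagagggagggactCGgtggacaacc
Supt20: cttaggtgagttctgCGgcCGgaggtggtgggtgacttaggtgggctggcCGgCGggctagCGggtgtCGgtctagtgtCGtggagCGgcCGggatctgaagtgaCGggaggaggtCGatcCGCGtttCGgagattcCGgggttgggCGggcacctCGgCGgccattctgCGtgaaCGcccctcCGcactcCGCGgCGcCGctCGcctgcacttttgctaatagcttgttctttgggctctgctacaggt
Sdf2l1: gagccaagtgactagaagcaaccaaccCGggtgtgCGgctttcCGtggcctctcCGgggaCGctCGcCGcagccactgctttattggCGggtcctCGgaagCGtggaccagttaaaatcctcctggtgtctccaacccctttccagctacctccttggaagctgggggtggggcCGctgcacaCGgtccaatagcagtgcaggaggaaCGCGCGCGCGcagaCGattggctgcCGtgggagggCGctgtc
Tppp: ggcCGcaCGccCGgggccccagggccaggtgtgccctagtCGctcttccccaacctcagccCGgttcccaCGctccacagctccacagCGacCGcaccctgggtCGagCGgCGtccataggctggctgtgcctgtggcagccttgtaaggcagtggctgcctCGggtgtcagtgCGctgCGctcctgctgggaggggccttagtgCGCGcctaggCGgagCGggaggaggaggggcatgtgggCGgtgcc
Hmgxb4: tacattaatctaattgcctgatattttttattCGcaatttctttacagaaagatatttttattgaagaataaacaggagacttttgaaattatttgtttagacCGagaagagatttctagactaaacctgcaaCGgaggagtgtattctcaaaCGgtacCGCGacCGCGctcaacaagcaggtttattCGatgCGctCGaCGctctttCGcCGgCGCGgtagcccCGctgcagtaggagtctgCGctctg
Rdx: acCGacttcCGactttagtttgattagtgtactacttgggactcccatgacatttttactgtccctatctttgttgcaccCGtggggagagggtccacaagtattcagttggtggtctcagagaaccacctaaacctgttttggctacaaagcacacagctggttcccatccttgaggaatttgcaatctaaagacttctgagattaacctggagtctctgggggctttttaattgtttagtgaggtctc

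These 250-base stretches held 23 CG in Fosl2, 26 in Supt20, 20 in Sdf2l1, 19 in Tppp and 18 in Hmgxb4, but 3 in Rdx. Over the full record of 300 bases, which adds 50 bases after the start, the observed over expected ratio was 1.03 in Fosl2, 0.77 in Sdf2l1, 0.65 in Tppp, 1.39 in Hmgxb4 and 0.19 in Rdx. Rdx encodes radixin, which links actin to the membrane. Its peak covered 2 listed starts, and the CG-poor stretch belongs to the outer of them: only 9 of its bases lie inside the peak, while all 250 do in Fosl2, Supt20, Sdf2l1, Tppp and Hmgxb4. Of the motifs searched on both strands (listed with the base composition results), Fosl2, Supt20 and Tppp each held 1 GGGCGG, with 69, 100 and 4 bases between it and the start. Sdf2l1 held CCAAT 3 times, ending 163, 58 and 21 bases before the start, and the Hmgxb4 and Rdx stretches held none of the motifs.

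All 470 members are accounted for among the 653 peaks of at least 1500 bp in the list. Of the other broad peaks, 96 reached the ends of 2 or more coding genes, 76 reached none, 9 lay at a single gene under the CPM limit and 2 at a single gene without a count. Member widths ran from 1500 to 5559 bp, with a median of 1902 bp and quartiles of 1683 and 2265 bp, and together they covered 964.5 kb. The limit of 1500 bp does not part 2 kinds of peak: just inside it lay Nefl (1500 bp), Tex10 (1504 bp) and Syt10 (1505 bp), and just outside it Tcf12 and Tbl1xr1 (1499 bp each) and Cnot6 (1498 bp). The comparators used below are the 2573 peaks under 1500 bp that met every other part of the rule, called narrow peaks here, with a median width of 669 bp at 2124 genes. Of the 459 genes, 115 also carried such a narrow peak.

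The broadest member lay over Fosl2, which encodes an AP-1 subunit of the Fos family, and spanned 5559 bp (chr5:32133580-32139138, mm10), from 2892 bp before to 2666 bp after the start. Pcdh7, a protocadherin, followed with 4512 bp (chr5:57715966-57720477) and Fat1, an atypical cadherin, with 4439 bp (chr8:44934715-44939153). Tbc1d2, a GTPase-activating protein of Rab proteins, had 4172 bp (chr4:46648412-46652583), Lsm14b, an RNA-binding protein, 3898 bp, and the Wnt receptor gene Fzd1 3778 bp. The Groucho-type corepressor gene Tle1 had 3586 bp, the IGF carrier gene Igfbp3 3583 bp, the RNA-binding protein gene Ralyl 3565 bp and Lrrc1, which encodes a leucine-rich repeat protein, 3534 bp. Among all listed peaks the widest had 8215 bp and was not a member.

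The authors' score, of unknown meaning (not given in the sources used here), was higher over broad than over narrow peaks, with a median of 13.4 (8.19 to 52.2) against 10.5. Of the members, 133 (28.3%) were among the 500 best scores of the list, and of the narrow peaks 7.15%. Width and score come from the same signal, so this is a description of the list. Supt20, a subunit of the SAGA acetyltransferase complex, held the best score of all (52.2, 3093 bp, chr3:54690771-54693863). Asf1a, a histone chaperone, ranked at 3 (46.2, 1960 bp) and Tbc1d2 at rank 5 (42.2). Next among the members came Igf1r, the receptor of insulin-like growth factor, at rank 16 (31.7). Elmod2, a GTPase-activating protein of Arf-like proteins, was at rank 20 (29.4), tied with Hat1, a histone acetyltransferase. Within the 470 members width was only loosely related to the score (Spearman's rank correlation 0.24 across peaks) and not visibly to the CTRL level of the gene (rank correlation 0.01). Peaks of 1 list share their libraries, and these coefficients are descriptions.

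**Figure D1:**
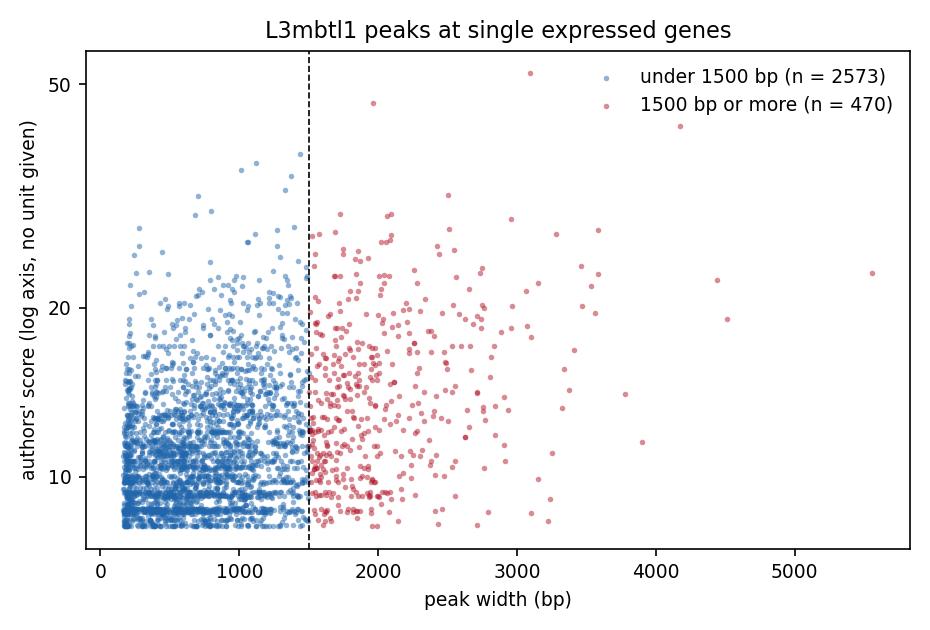
Each point is 1 L3mbtl1 peak at a single expressed coding gene; the horizontal axis is its width in bp and the vertical axis the authors' score on a log scale. The dashed line is the limit of 1500 bp, which cuts through a continuous cloud; the 470 broad peaks (red) reach 5559 bp and the highest score of 52.2.

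The broad peaks lay at the starts of genes. Of the 364 members whose gene has a RefSeq promoter record and so a known strand, 347 (95.3%) reached only the start of the gene, 13 reached both ends and 4 reached only the 3′ end. The 13 that reached both are short genes: Fzd1, Nanos1, Gfra4, Ptma, Gas1, Sdf2l1, Jun, Mrfap1, Pop5, Hspa2, Dusp1, Fgfbp3 and Egr4. The 4 at the 3′ end were the downstream peaks of Cdkn1b and Tchh and the peaks of Tank and 1810010H24Rik. These names complete small counts and were chosen after the values were seen. The downstream Cdkn1b peak (chr6:134926373-134928795) is within reach of the long noncoding RNA gene Lockd, while the other Cdkn1b peak covers the start of the coding gene. Narrow peaks had nearly the same makeup, with 97.3% of 2031 at the start only.

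Around the start itself the broad peaks kept by the rule were shifted into the gene. The rule left out 96 broad and 747 narrow peaks that reached the ends of 2 or more coding genes. A peak that extends upstream to a neighbouring gene is left out in this way, and the part of this choice in the shift was not tested. A listed start lay inside 256 of 364 broad peaks (70.3%) and inside 677 of 2031 narrow peaks (33.3%), a gap that greater width alone would widen. In those 256 the peak reached a median of 748 bp upstream (quartiles 399 and 1018) and 1293 bp downstream (quartiles 1011 and 1683), and 194 (75.8%) extended further downstream than upstream. Among the narrow peaks that covered a start, 60.4% extended further downstream, with medians of 286 bp up and 407 bp down. Of the 108 broad peaks whose gene had a listed start that they did not cover, 94 came within 2000 bp of it, and 73 of these 94 lay downstream against 21 upstream, with a median of 218 bp from the start to the nearer edge. The other 14 lay further from any listed start, as at Fat1, whose peak sits at the outer end of the RefSeq gene and far from the listed start, and at Slc1a2. A position 500 bp into the gene was covered by 86% of 351 broad peaks within reach of a start, the start by 72.9%, and positions 1000 bp downstream and upstream by 74.9% and 25.1%. Narrow peaks were most frequent at 150 bp downstream (45% of 1983), with 34.1% at the start.

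**Figure D2:**
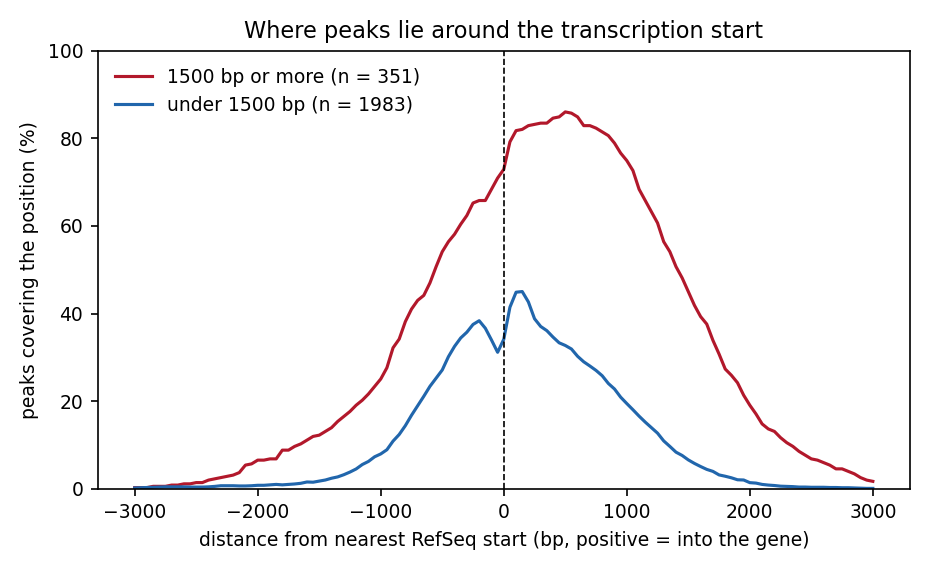
Share of peaks (vertical axis, percent) that cover each position from 3000 bp before to 3000 bp after the nearest RefSeq start (horizontal axis, bp, positive into the gene), for 351 broad and 1983 narrow peaks. The broad curve (red) peaks at 86% 500 bp inside the gene and stands at 54.1% at 500 bp before the start and 45% at 1500 bp inside the gene; the narrow curve (blue) has its maximum of 45% at 150 bp and a dip at the start.

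Several broad peaks are pieces of still longer stretches. For 83 of the 470 (17.7%) another listed peak began or ended less than 200 bp away. In the whole list 511 neighbouring pairs were that close, 262 of them separated by 50 to under 100 bp, 139 by 100 to under 150 bp and 110 by 150 to under 200 bp, and no gap was shorter than 56 bp. A lower bound of this kind can be a setting of the peak caller, and none is given in the sources used here. The 11 genes with 2 member peaks were Anp32b, Bend3, Cdkn1b, Hspa2, Igf1r, Klf4, Map3k5, Med12l, Nr4a3, Patz1 and Tchh. In 7 of them the gap was under 200 bp, from 60 bp in Igf1r and 77 bp in Anp32b to 145 bp in Tchh and 179 bp in Bend3. In Bend3 (gap 179 bp), Map3k5 (254 bp) and Klf4 (756 bp) a listed start lay in the gap between both peaks and neither peak covered one. When peaks less than 200 bp apart were joined, an alternative added after seeing the data, 4166 peaks remained, of which 573 were broad, and 186 of these consisted of 2 or more pieces. They lay at 564 genes, 105 of which were not among the 459. The widest was then the one at Igf1r, with 5878 bp from 3 pieces, followed by Fosl2, which stood alone, and Pcdh7 with 5419 bp from 2 pieces.

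Base composition set the covered starts apart from other promoters by description. RefSeq promoter records of 300 bases were available for 282 starts of 255 genes inside broad peaks. Their median GC content was 68.3% (quartiles 62.8% and 73%), with 31 CG per record and an observed over expected ratio of 0.92. Records under narrow peaks (729) had 65% GC, 27 CG and a ratio of 0.89, those of expressed coding genes without a peak (9915) 60% GC, 18 CG and a ratio of 0.70, and those of all coding genes (21263) 56.3% GC, 13 CG and a ratio of 0.57. GC content above 50% together with a ratio above 0.6, a usual mark of a CpG island, was met by 93.3% of the broad, 89.2% of the narrow, 58.7% of the no-peak and 44.9% of all records. These sets are unlike, because the broad and narrow sets hold only starts inside a peak. The no-peak and all-coding sets hold every listed start of their genes, 9915 starts of 7647 genes without a peak. The part of this choice of starts in the differences was not tested. The broad and narrow sets lay closer to each other in CG per record and in the ratio than either lay to the genes without a peak; in GC content the steps from broad to narrow and from narrow to no peak were nearer in size. Starts of 1 gene and records of neighbouring starts overlap, and GC-rich DNA can be recovered unevenly in ChIP-seq; the part of base composition in the peak calls was not tested.

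**Figure D3:**
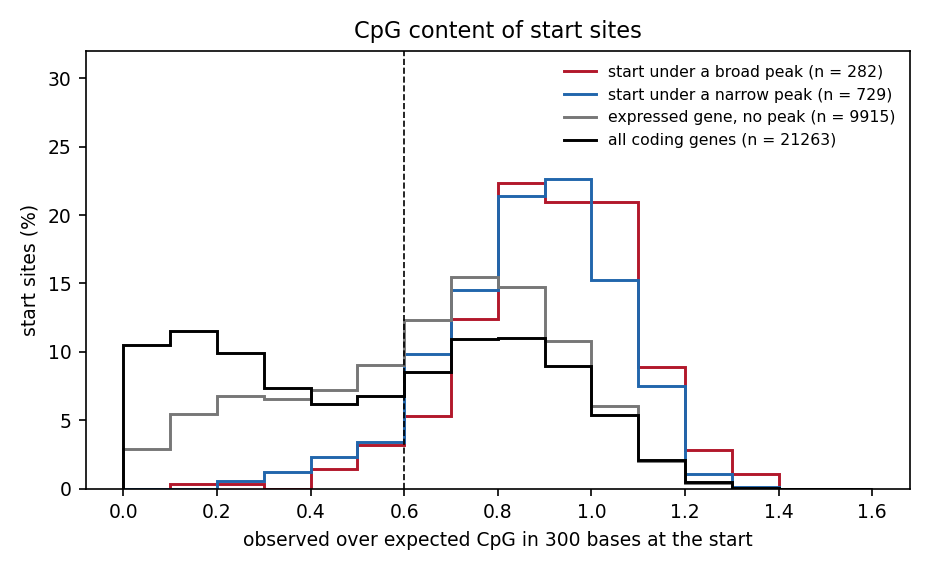
Share of start sites (vertical axis, percent) in each bin of observed over expected CG (horizontal axis, bins of 0.1) in the 300-base RefSeq record, for starts under broad peaks (282), under narrow peaks (729), of expressed genes without a peak (9915) and of all coding genes (21263). The dashed line marks 0.6; the broad and narrow outlines lie mostly to its right, and the sets without a peak also have many starts on its left.

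The motif search counted records that hold the letters on either strand, in the same unlike sets of starts. GGGCGG, the GC box bound by Sp factors, was in 77.3% of broad, 76.3% of narrow, 58.9% of no-peak and 46.2% of all coding records. CCAAT, the box of NF-Y, was in 35.5% of broad, 46% of narrow, 36.8% of no-peak and 38.2% of all records. CACGTG, an E-box, was in 15.2%, 11.4%, 9.54% and 7.84% in the same order, and TATAAA in 4.61%, 4.53%, 7.57% and 12.6%. TGANTCA, the AP-1 site, was in 2.84%, 3.7%, 5.62% and 6.99%, and TGACGTCA, the cyclic AMP response element, in 3.55%, 3.43%, 2.92% and 2.23%. CCGGAAG, the ETS site, was in 16%, 16.3%, 15.5% and 11.6%. GCGCATGCG of NRF1 was in 3.9%, 5.08%, 3.04% and 2.35%, AAGATGGCG of YY1 in 2.84%, 3.02%, 2.55% and 1.83%, and TCTCGCGAG in 1.06%, 1.1%, 1.38% and 0.964%. Motifs that contain CG or are GC-rich have more chances in GC-rich records, and a match is not a bound site.

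The genes themselves had a longer median span than the comparison sets and covered a wide range of expression. Their median span was 56 kb, against 39.4 kb for genes of narrow peaks and 24.9 kb for expressed coding genes without a peak. Genes of narrow peaks met the same single-gene rule, but genes without a peak met no such rule. The part of the rule in these spans was not tested. The median CTRL level of the member genes was 56.7 CPM (quartiles 24.2 and 126.2, lowest 1.02, highest 953), against 49.6 CPM for genes of narrow peaks, 23.9 CPM without a peak and 28.1 CPM over all expressed coding genes. CPM is not corrected for length, and total RNA of long genes gives more reads, so levels of different genes are not compared further. No member lay on the X chromosome, which holds 469 of the 13256 expressed coding genes; 16 of 2573 narrow peaks and 26 of the 4677 listed peaks did. Chromosome 2 had the most, 41. A long noncoding RNA end was within reach of 20.9% of broad and 20.6% of narrow peaks. Only 7 broad peaks reached a microRNA gene: those at Gfra4 (Mir6973b), Ifrd1 (Mir1938), Ankrd10 (Mir7238), Neto2 (Mir8109), Mllt10 (Mir7655), Kctd12 (Mir5130) and Zfp518a (Mir8092), names chosen after the values were seen.

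The RNA libraries held 14524916 to 19498189 gene counts. The first principal component of log2 CPM (60.4% of the variance) parted PTX from CTRL, and the second (21%) set both libraries numbered 1 apart from the others. Summed levels of 15 astrocyte markers were 7481 to 10162 CPM in CTRL and 5849 to 7614 CPM in PTX, those of 13 excitatory neuron markers 702 to 899 and 773 to 951 CPM, those of 16 inhibitory neuron markers 1400.2 to 1692 and 1672 to 1936 CPM, those of 14 microglia markers 57.9 to 200.4 and 83.1 to 349.7 CPM, and those of 11 meningeal fibroblast markers 203 to 814 and 198 to 734 CPM. Single markers did not all follow these sums: 8 of the 13 excitatory markers fell and 2 rose, 6 of the 16 inhibitory markers rose and 3 fell, and 6 of the 15 astrocyte markers fell and 1 rose. No marker list was at 0 in either group, so RNA of neurons, glia and other cells was present. In such bulk samples fewer cells of a type and less RNA per cell cannot be told apart, and the part of cell makeup in the changes below was not tested. Values written with ± are means with the SD over libraries (n = 4 in each group). The control level entered the choice of members through its limit of 1 CPM; the PTX libraries did not.

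More genes under broad peaks rose than fell after picrotoxin. Of the 459 genes, all tested, 149 rose (32.5%) and 89 fell (19.4%) at an edgeR adjusted p under 0.05 over all 15959 tested genes, so 238 (51.9%) were called. The background was 39.2% of all tested genes called, with 19% higher and 20.1% lower in PTX, and 41.5% of the expressed coding genes, with 19.5% higher and 22% lower. Over all levels the share of falls among the members was close to the background and that of rises above it; the shares by CTRL level, which differ, follow. Changes of at least 2-fold were called for 50 genes that rose and 18 that fell, together 14.8%, against 11.9% of all tested and 10.3% of expressed coding genes. In 138 genes every PTX library was above every CTRL library and in 85 every one was below, 48.6% in all; the same held for 38% of all tested and 40.1% of expressed coding genes. The median log2 fold change over the 459 was 0.09 (quartiles -0.25 and 0.43), beside -0.03 over all tested genes. By pair of same-numbered libraries the median log2 ratio was 0.02, 0.04, 0.11 and 0.16 for pairs 1 to 4 (SD 0.06). With a replicate block, which treats same-numbered libraries as pairs, 187 genes rose and 125 fell, and all 238 calls were kept. Over all 15959 tested genes the block gave 4097 rises and 4723 falls. Without both libraries numbered 1, 157 genes rose and 70 fell. The background moved too: in that fit 3313 of all 16056 tested genes rose and 2729 fell, with a median log2 fold change of 0.02.

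Genes with only narrow peaks were nearer to the background: of 2009, 24.7% rose and 22.2% fell, with a median log2 fold change of -0.00. Of 9586 expressed coding genes without a peak, 18.1% rose and 22.3% fell, with a median of -0.06. Level matters for how many genes can be called, so the shares were also taken by CTRL level. At 1 to 10 CPM 37% of 54 members and 16.2% of 3433 expressed coding genes rose, at 10 to 50 CPM 37.7% of 159 and 20% of 5190, and at 50 to 100 CPM 36.3% of 102 and 22.7% of 2203. At 100 CPM and over the shares were 22.4% of 143 and 20.1% of 2403. The shares that fell, members first, were 14.8% and 14.3% at 1 to 10 CPM, 14.5% and 23.3% at 10 to 50 CPM, 16.7% and 24.9% at 50 to 100 CPM, and 28.7% and 27.5% at 100 CPM and over. Falls were thus a smaller share of the members than of the expressed coding genes in the 2 middle classes and a similar share in the lowest and highest class. From the narrowest to the widest of 4 width classes of near equal size, 27.6%, 30.7%, 37.4% and 34.2% of the members rose, and across the 459 genes width was barely related to the log2 fold change (rank correlation 0.09). The share that rose was 29% of 255 genes with a covered start and 31.6% of 98 with a listed start that was not covered. These are descriptions of groups of genes, with no test of a difference between the groups.

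**Figure D4:**
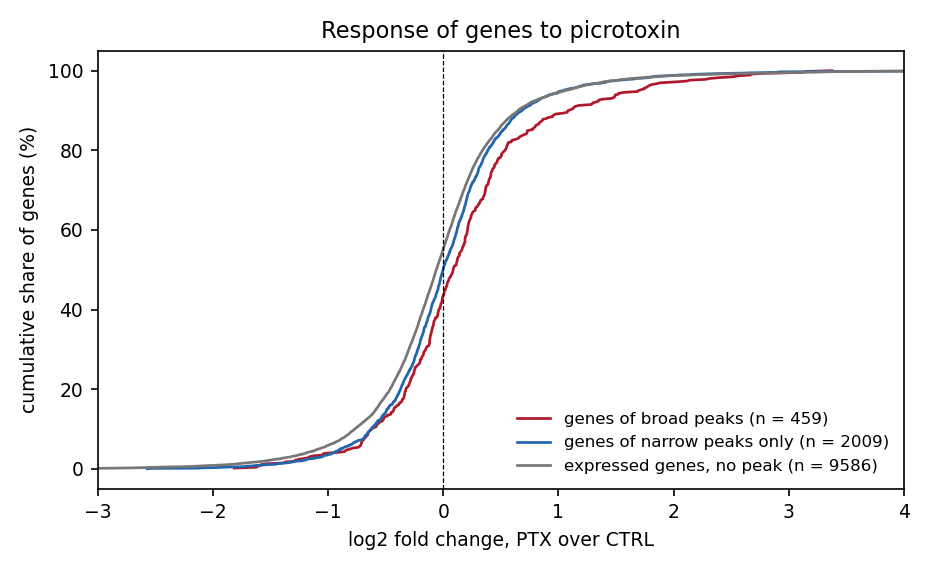
Cumulative share of genes (vertical axis, percent) up to each log2 fold change of PTX over CTRL (horizontal axis) for 459 genes of broad peaks, 2009 with narrow peaks only and 9586 expressed coding genes without a peak. The broad curve (red) runs to the right of the others above 0, with medians of 0.09, -0.00 and -0.06.

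The 10 largest rises without overlap began with Nefl, Nfil3 and Sdf2l1. Nefl, the light chain of neurofilaments, measured 467, 364, 237 and 209 CPM in CTRL and 3468, 2626, 4353 and 2826 CPM in PTX, libraries 1 to 4 in order in both groups here and below. It rose 10.4-fold (log2 fold change 3.38, SE 0.28, edgeR adjusted p = 1.42e-05), although the CTRL libraries themselves spread from 209 to 467 CPM. Its peak is the narrowest member, and the gene has no promoter record among those used. Nfil3, a bZIP repressor linked to the circadian clock, measured 8.26, 11.4, 10.6 and 10.8 CPM in CTRL and 85.1, 87.5, 96.7 and 91.7 CPM in PTX. All PTX libraries lay far above all CTRL libraries (log2 fold change 3.14, SE 0.11, edgeR adjusted p = 4.16e-07), and its 2310 bp peak lies inside the gene. Sdf2l1, a chaperone cofactor of the endoplasmic reticulum whose promoter is printed above, measured 5.54, 5.95, 6.04 and 5.88 CPM in CTRL and 56.7, 40.3, 63.8 and 43.7 CPM in PTX (log2 fold change 3.12, SE 0.16, edgeR adjusted p = 9.90e-07). Its 2121 bp peak spans 53.4% of the short gene. Stc2, which encodes the secreted protein stanniocalcin, measured 7.08, 12.3, 6.69 and 8.23 CPM in CTRL and 78.1, 48.7, 57.6 and 55 CPM in PTX (log2 fold change 2.80, SE 0.22, edgeR adjusted p = 9.24e-06). CTRL library 2 was the highest of its group and still below every PTX library.

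Fosl2, under the broadest peak, measured 31, 36.3, 24.4 and 23.2 CPM in CTRL and 188, 181, 188 and 173 CPM in PTX (log2 fold change 2.67, SE 0.14, edgeR adjusted p = 1.32e-06), with tight PTX values. Ifrd1, an interferon-related transcription regulator, measured 72.5, 70.8, 57 and 58 CPM in CTRL and 447, 289, 519.9 and 393 CPM in PTX (log2 fold change 2.67, SE 0.18, edgeR adjusted p = 4.06e-06), and PTX library 2 was the lowest of its group. Dusp1, a phosphatase that switches off MAP kinases, measured 3.48, 9.87, 9.54 and 9.28 CPM in CTRL and 36.8, 41.2, 51.4 and 60.6 CPM in PTX. The groups did not overlap (log2 fold change 2.56, SE 0.29, edgeR adjusted p = 1.04e-04), and CTRL library 1 stood well below the other controls. Dmxl1, a regulator of the vacuolar proton pump, measured 223, 179, 189 and 199 CPM in CTRL and 1195, 1031, 1264 and 1049 CPM in PTX (log2 fold change 2.52, SE 0.11, edgeR adjusted p = 4.70e-07). Tchh, which encodes trichohyalin, a structural protein of hair follicles, measured 2.83, 2.36, 3 and 2.81 CPM in CTRL and 13.3, 10.6, 16.7 and 17.8 CPM in PTX (log2 fold change 2.40, SE 0.19, edgeR adjusted p = 1.14e-05). Both of its peaks lay inside the gene and neither covered the listed start. Klf4, a Krüppel-like transcription factor, was low in CTRL, with 0.649, 1.35, 1.35 and 1.89 CPM in CTRL and 4.85, 3.83, 8.55 and 8.86 CPM in PTX (log2 fold change 2.31, SE 0.37, edgeR adjusted p = 7.64e-04). All 10 rises were above the CTRL range in each PTX library, which the choice of genes without overlap required.

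The 10 largest falls without overlap began with Zbtb18, Tppp and Plxnc1. Zbtb18, a zinc finger repressor needed for cortical and hippocampal development, measured 565, 488, 475 and 426 CPM in CTRL and 132, 162, 129 and 133 CPM in PTX. It was lower in every pair (log2 fold change -1.82, SE 0.11, edgeR adjusted p = 2.98e-06), and PTX library 2 kept the most. Its 1617 bp peak covered none of its 5 listed starts. Tppp, a protein that promotes microtubule assembly, measured 490.4, 446, 451 and 372 CPM in CTRL and 177, 143, 126 and 126 CPM in PTX (log2 fold change -1.62, SE 0.13, edgeR adjusted p = 1.24e-05). Plxnc1, a semaphorin receptor, measured 208, 124, 179 and 150.4 CPM in CTRL and 54.6, 57.6, 48.7 and 55.8 CPM in PTX (log2 fold change -1.61, SE 0.15, edgeR adjusted p = 2.58e-05). CTRL library 2 was its lowest control and still more than any PTX library. Acvr2b, an activin receptor, was low throughout, with 1.12, 2.02, 2.55 and 2.87 CPM in CTRL and 0.574, 1, 0.689 and 0.546 CPM in PTX (log2 fold change -1.59, SE 0.35, edgeR adjusted p = 0.00479). Its CTRL library 1 and PTX library 2 almost met, and few reads are behind each value.

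Chn1, a GTPase-activating protein of Rac in neurons, measured 400.1, 414, 352 and 279.6 CPM in CTRL and 137, 137, 107 and 101 CPM in PTX. Its log2 fold change was -1.58 (SE 0.15, edgeR adjusted p = 3.07e-05). Cdh8, a type II cadherin of synapses, measured 90.3, 92.5, 94.5 and 75.8 CPM in CTRL and 25.4, 33.4, 36.5 and 27.3 CPM in PTX (log2 fold change -1.53, SE 0.13, edgeR adjusted p = 1.48e-05). Bcl7a, a subunit of BAF chromatin remodelling complexes, measured 46.5, 41.1, 48.6 and 46.4 CPM in CTRL and 18.7, 16.7, 17.7 and 16.8 CPM in PTX (log2 fold change -1.39, SE 0.09, edgeR adjusted p = 2.98e-06), with little spread in either group. Cdk19, a kinase of the Mediator complex whose peak ranked at 23 by score, measured 45, 42.4, 47.4 and 38.8 CPM in CTRL and 15.6, 15.9, 18.1 and 17.4 CPM in PTX (log2 fold change -1.37, SE 0.09, edgeR adjusted p = 4.96e-06). Galnt9, a glycosyltransferase, measured 28.9, 43, 25.4 and 24.8 CPM in CTRL and 12.9, 13.8, 12.5 and 10.7 CPM in PTX (log2 fold change -1.29, SE 0.18, edgeR adjusted p = 3.58e-04), with CTRL library 2 the highest. Gfra4, a co-receptor of the GDNF family whose 2762 bp peak covers 79.9% of the gene, measured 18, 16.6, 16.8 and 15 CPM in CTRL and 8.04, 8.79, 5.03 and 5.28 CPM in PTX (log2 fold change -1.29, SE 0.19, edgeR adjusted p = 4.74e-04). Each of the 10 lay below its CTRL range in all PTX libraries, again required by the choice.

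**Figure D5:**
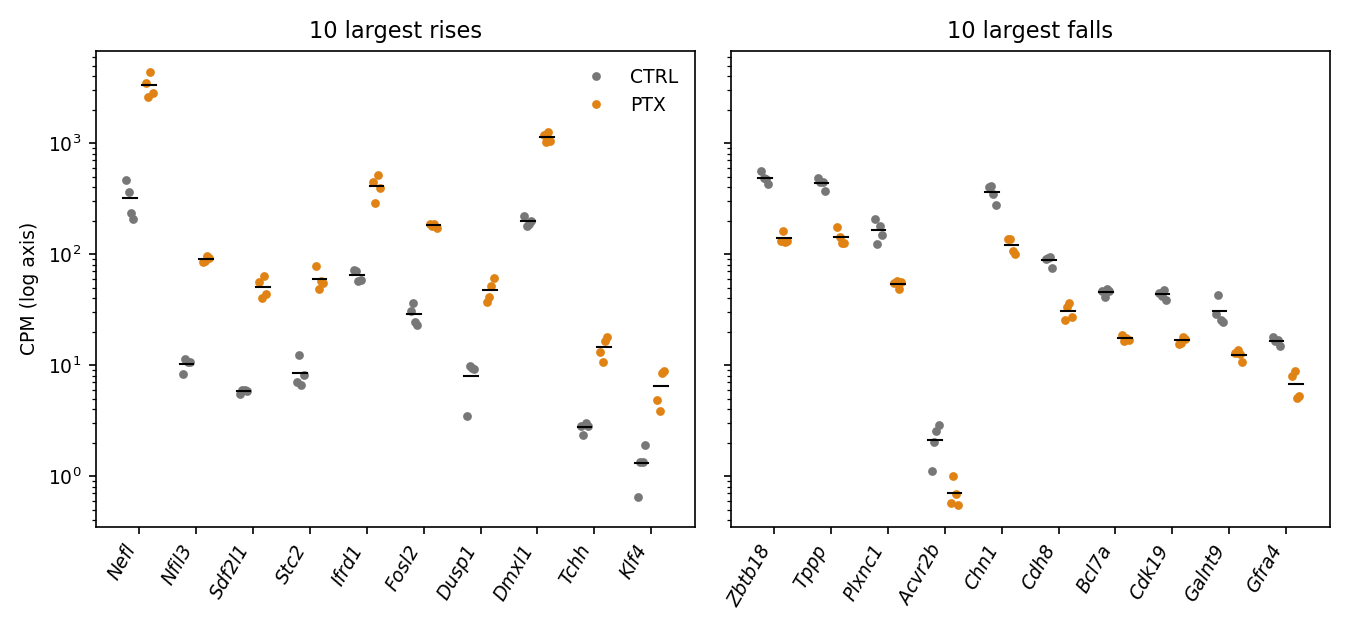
CPM (vertical axis, log scale) in each CTRL (grey) and PTX (orange) library, n = 4 each, for the 10 member genes with the largest rise (left) and the 10 with the largest fall (right); black bars are means. The 20 genes were drawn from called members whose groups do not overlap, so the groups are apart in all of them by choice. Levels run from low, as in Klf4 and Acvr2b, to 4353 CPM in Nefl.

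Several genes that neurons switch on with activity were members. Of 23 expressed immediate early genes, which need no new protein to be switched on, 6 (26.1%) carried a broad peak, beside 3.46% of all expressed coding genes; the list was written with earlier results of these data known. Fosl2, Jun, Nr4a3, Dusp1 and Klf4 rose, and Egr4 was not called at 1.71 ± 1.13 (CTRL) and 2.47 ± 0.83 CPM (PTX) (adjusted p = 0.379). In the list as a whole, 21 of 24 tested genes rose and 1 fell, with a median log2 fold change of 1.84, against 2.03 for the 6 members. Jun, an AP-1 subunit, measured 52.4, 58.6, 61.3 and 59.7 CPM in CTRL and 211, 140.1, 215 and 185 CPM in PTX (log2 fold change 1.69, SE 0.13, edgeR adjusted p = 1.10e-05). Its peak covers 62.5% of the short gene and is within reach of an end of the antisense gene Junos, and reads of these 2 genes cannot be told apart without strand. Nr4a3, an orphan nuclear receptor, measured 50.5, 37.3, 35.3 and 38.4 CPM in CTRL and 108, 113, 137 and 183 CPM in PTX (log2 fold change 1.75, SE 0.18, edgeR adjusted p = 5.63e-05). Of its 2 peaks, 1 covers the start and the other lies upstream across a gap of 79 bp.

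Of 28 expressed delayed activity-response genes, which follow within hours, 3 carried a broad peak and all 3 rose, as did 28 of the 30 tested genes of the list. Besides Nfil3 these were Vgf and Spry2. Vgf, a neuropeptide precursor, measured 50.1, 126, 49.8 and 42.2 CPM in CTRL and 359, 361, 304 and 279 CPM in PTX (log2 fold change 2.28, SE 0.32, edgeR adjusted p = 3.68e-04), and CTRL library 2 was far above the other controls. Spry2, a feedback inhibitor of growth factor receptors, measured 34.6, 46.6, 40.3 and 33.4 CPM in CTRL and 121, 107, 112 and 106 CPM in PTX (log2 fold change 1.52, SE 0.11, edgeR adjusted p = 8.01e-06). Of 36 expressed kinases and phosphatases of neuronal signalling, Dusp6 and Mapk8 were members. Dusp6, a phosphatase of ERK, rose from 61.2 ± 12.9 to 197 ± 27.4 CPM (log2 fold change 1.69, SE 0.15, edgeR adjusted p = 2.38e-05), while Mapk8, a Jun kinase, was not called (adjusted p = 0.966). In that list 17 of its 36 tested genes fell and 5 rose.

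Transcription factors of neurons and development made up 18 members of 151 expressed genes of that list (11.9%). Of the 18, 5 rose and 6 fell, with a median log2 fold change of -0.30. In the list as a whole 27 of 158 tested genes rose and 46 fell, with a median of -0.13. With the replicate block 6 of the 18 rose and 10 fell, while 4097 of all 15959 tested genes rose and 4723 fell. Besides Zbtb18 and Klf4, Klf5 and Sox11 changed most. Klf5, a relative of Klf4, rose from 3.46 ± 0.502 to 14 ± 1.42 CPM (log2 fold change 2.01, SE 0.15, edgeR adjusted p = 7.79e-06), and Sox11, a factor of immature neurons, from 109 ± 18.8 to 325 ± 72.2 CPM (log2 fold change 1.57, SE 0.18, edgeR adjusted p = 8.77e-05). E2f5, a cell cycle repressor, rose from 16.6 ± 1.6 to 29 ± 4.24 CPM (log2 fold change 0.80, SE 0.12, edgeR adjusted p = 6.47e-04), and Hes1, a target of Notch named here to complete the count, from 13.5 ± 1.69 to 19.5 ± 1.79 CPM (log2 fold change 0.54, SE 0.12, edgeR adjusted p = 0.00576). Tcf4, an E-box binding factor tied to intellectual disability, fell from 829 ± 53.2 to 559 ± 48.1 CPM (log2 fold change -0.57, SE 0.09, edgeR adjusted p = 7.85e-04). Among the Krüppel-like members, Klf13 fell (log2 fold change -0.84, SE 0.14, edgeR adjusted p = 0.0011) and Klf9 was not called (log2 fold change 0.17, SE 0.10, edgeR adjusted p = 0.235), so the 4 genes of that family went different ways; Klf9 and Klf13 were chosen after their values were seen.

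Chromatin genes among the members included modifiers, remodellers and histone mark readers. Of 61 expressed histone and DNA modifiers, 5 (8.2%) were members. Sirt1, a histone deacetylase, fell from 27.3 ± 3.09 to 19.5 ± 0.949 CPM (log2 fold change -0.49, SE 0.10, edgeR adjusted p = 0.00349). Ezh2, the methyltransferase of Polycomb complex 2, rose from 23.7 ± 2.34 to 29.5 ± 2.07 CPM (log2 fold change 0.31, SE 0.10, edgeR adjusted p = 0.0287); this call was lost without CTRL library 4 (edgeR adjusted p = 0.0733; 0.00359 to 0.0733 over all alternatives). Tet2, which oxidises methylated cytosine, rose from 97.1 ± 15.4 to 143 ± 34.5 CPM (log2 fold change 0.56, SE 0.18, edgeR adjusted p = 0.0334), and its groups overlapped; the call was lost without any 1 of CTRL libraries 2 and 3 or PTX libraries 1, 3 and 4 (edgeR adjusted p 0.0522 to 0.11; 6.74e-05 to 0.11 over all alternatives). The Ezh2 and Tet2 calls were kept with the replicate block. Kat6a, an acetyltransferase, was not called (adjusted p = 0.167), but fell with the pairs taken into account (adjusted p = 0.0161 with the replicate block). The histone H3 lysine 4 methyltransferase gene Kmt2c was not called (145 ± 25.5 (CTRL) and 142 ± 23.1 CPM (PTX); adjusted p = 0.926).

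Of 48 expressed remodelling and architecture genes, 3 were members. Smarca2, an ATPase of BAF complexes, measured 243, 213, 239 and 235 CPM in CTRL and 122, 109, 118 and 141 CPM in PTX and fell (log2 fold change -0.92, SE 0.09, edgeR adjusted p = 4.41e-05). Arid1a, another BAF subunit, was not called (adjusted p = 0.116) except with the block (adjusted p = 0.0194 with the replicate block) or without CTRL library 2 (edgeR adjusted p = 0.0408; 0.0194 to 0.365 over all alternatives). Hmgb1, an abundant nucleosome-bending protein with many processed copies in the genome, was at 512 ± 30.8 (CTRL) and 564 ± 51.7 CPM (PTX) and is uncertain (adjusted p = 0.253; 0.0348 when PTX library 1 was left out; 0.0348 to 0.439 over all alternatives). Of 10 expressed genes with MBT domains, the family of L3mbtl1 itself, Sfmbt1 and L3mbtl3 carried broad peaks. Sfmbt1 measured 14.9, 15.7, 17.4 and 15.1 CPM in CTRL and 31.8, 25.1, 30 and 30.7 CPM in PTX and rose (log2 fold change 0.90, SE 0.10, edgeR adjusted p = 1.09e-04), while 7 of the 10 fell and 2 rose. L3mbtl3 was not called (43.7 ± 5.9 (CTRL) and 40.8 ± 4 CPM (PTX); adjusted p = 0.527). L3mbtl1 was no member, and its own level fell from 9.97 ± 0.97 to 2.92 ± 1.83 CPM (edgeR adjusted p = 0.00249).

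The members also held a few genes of RNA binding, translation and the zinc finger family. Of 164 expressed splicing factors and RNA-binding proteins 6 (3.66%) were, a share like that of all genes. Hnrnpr, a ribonucleoprotein, fell from 201 ± 2.28 to 124 ± 4.93 CPM (log2 fold change -0.69, SE 0.07, edgeR adjusted p = 3.35e-05), and so did Nova1, a neuronal splicing regulator, from 25.4 ± 3.15 to 16.2 ± 3.49 CPM (log2 fold change -0.65, SE 0.16, edgeR adjusted p = 0.0101). Dhx15, a splicing helicase, rose from 175 ± 11.8 to 237 ± 12 CPM (log2 fold change 0.44, SE 0.08, edgeR adjusted p = 0.0015). Rbm15, Rbfox2 and Srsf3 were not called, though Rbfox2 was higher with the block (adjusted p = 0.0101 with the replicate block), and Rbm15 (adjusted p = 0.102) without PTX library 2 (edgeR adjusted p = 0.0399; 0.0399 to 0.262 over all alternatives). The single translation factor, Eif3e of 64, was at 208 ± 23.3 (CTRL) and 237 ± 21.5 CPM (PTX) (adjusted p = 0.174; adjusted p = 0.0345 with the replicate block). It also passed without CTRL library 1 or PTX library 4 (edgeR adjusted p 0.0365 and 0.035; 0.0345 to 0.381 over all alternatives). None of 80 expressed ribosomal protein genes and none of 39 ubiquitin genes was a member, beside 3.46% of all expressed coding genes. Narrow peaks only were at 15 and 13 of them, beside 2009 of the 13256 expressed coding genes. Lists of this length hold few members at a share of 3.46%.

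Of 357 expressed genes named Zfp, 5 (1.4%) were members. Zfp395 measured 2.24, 2.81, 2.6 and 3.99 CPM in CTRL and 5.62, 5.66, 5.1 and 8.92 CPM in PTX and rose (log2 fold change 1.13, SE 0.25, edgeR adjusted p = 0.00477), with PTX library 4 the highest. Zfp644 measured 284, 264, 267 and 240.1 CPM in CTRL and 191, 224, 215 and 194 CPM in PTX and fell (log2 fold change -0.36, SE 0.09, edgeR adjusted p = 0.00785); the call was lost without both libraries numbered 1 (log2 fold change -0.25, edgeR adjusted p = 0.0544; 6.61e-04 to 0.0544 over all alternatives). The others were not called: Zfp367 (adjusted p = 0.528), Zfp518a (adjusted p = 0.324) and Zfp704 (adjusted p = 0.691).

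The synaptic lists are short, and their shares of members are read beside the 3.46% of all expressed coding genes. None of 29 expressed genes of vesicle release and none of 12 GABA-A receptor subunits carried a broad peak, and of 35 glutamate receptor genes 1 (2.86%) did, Neto2, an auxiliary subunit of kainate receptors. Neto2 measured 278, 218, 223 and 211 CPM in CTRL and 304, 256, 289 and 258 CPM in PTX and was not called (adjusted p = 0.0897), but was higher with the block (adjusted p = 0.00411 with the replicate block). Without CTRL library 1 or PTX library 4 it also passed (edgeR adjusted p 0.0121 and 0.0434; 0.00411 to 0.212 over all alternatives). Of 68 expressed voltage-gated channel genes 3 (4.41%) were members, of which 1 rose and 1 fell, and 2 of the 3 are described here. Cacna2d3, an auxiliary calcium channel subunit, measured 137, 123, 122 and 111 CPM in CTRL and 83.5, 79, 68 and 67.3 CPM in PTX and fell (log2 fold change -0.73, SE 0.10, edgeR adjusted p = 3.10e-04). Cacnb2, another auxiliary subunit, was not called (47.2 ± 2.1 (CTRL) and 53 ± 7.95 CPM (PTX); adjusted p = 0.255). In the channel list as a whole 35 of 69 tested genes fell and 12 rose.

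Of 32 expressed postsynaptic scaffold and adhesion genes, 3 (9.38%) were members. Sipa1l1, a GTPase-activating protein of Rap in spines, measured 135, 124, 133 and 118 CPM in CTRL and 81.3, 70.9, 79.4 and 81.1 CPM in PTX. It fell (log2 fold change -0.71, SE 0.08, edgeR adjusted p = 1.00e-04). Nlgn1, a neuroligin of excitatory synapses, measured 286, 228, 238 and 223 CPM in CTRL and 228, 176, 197 and 182 CPM in PTX, with overlapping groups (log2 fold change -0.32, SE 0.11, edgeR adjusted p = 0.0455). The replicate block also called Nlgn1. Its call was lost without any 1 of CTRL libraries 1, 2 and 3 or PTX libraries 2, 3 and 4 (edgeR adjusted p 0.064 to 0.262; 5.97e-04 to 0.262 over all alternatives). Cdh2, N-cadherin, measured 225, 207, 255 and 276 CPM in CTRL and 172, 167, 230.0 and 223 CPM in PTX and fell only with the block (adjusted p = 0.126; adjusted p = 0.00181 with the replicate block). The motor protein gene Kif5b, the only member of 41 cytoskeleton genes, had each PTX library above each CTRL library and was not called (616 ± 38 (CTRL) and 703 ± 29.9 CPM (PTX); adjusted p = 0.0804). It was higher with the block (adjusted p = 0.0231 with the replicate block), and also without CTRL library 1 or PTX library 4 (edgeR adjusted p 0.0294 and 0.0387; 0.0231 to 0.225 over all alternatives).

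Of the cell type markers, 2 of 15 expressed astrocyte markers (13.3%) were members. None was among 13 expressed markers of excitatory and 14 of inhibitory neurons, 12 of microglia, 13 of the oligodendrocyte lineage, 7 of endothelial and mural cells and 11 of meningeal fibroblasts, lists too short to set against a share of 3.46%. Slc1a2, the main glutamate transporter of astrocytes, measured 1100.1, 914, 1044 and 699 CPM in CTRL and 792, 579, 715 and 529 CPM in PTX, with overlapping groups (log2 fold change -0.52, SE 0.17, edgeR adjusted p = 0.0314). Its fall was lost without any 1 of CTRL libraries 1, 2 and 3 or PTX libraries 2, 3 and 4 (edgeR adjusted p 0.0611 to 0.143; 1.78e-05 to 0.143 over all alternatives), and the summed astrocyte markers given above were also lower in PTX. Slc1a2 was lower in PTX in each same-numbered pair, and its call was kept with the replicate block. The peak lies at the outer end of the RefSeq gene and far from the listed start. Gja1, the gap junction protein connexin, measured 234, 312, 299.7 and 236 CPM in CTRL and 182, 214, 213 and 272 CPM in PTX (adjusted p = 0.13; adjusted p = 0.025 with the replicate block).

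The 8 members with the highest mean CPM in CTRL, a scale not corrected for gene length, were not called or fell; a level that is high in CTRL is part of what chose them. Besides Slc1a2, Tcf4 and Kif5b these were Purb, Apc, Clasp2, Arhgap5 and Gmfb. Clasp2, a microtubule plus-end protein, measured 667, 508, 527 and 492 CPM in CTRL and 303, 256, 251 and 261 CPM in PTX and fell (log2 fold change -1.03, SE 0.11, edgeR adjusted p = 7.92e-05). Purb, a single-stranded nucleic acid binding protein, measured 967, 795, 831 and 777 CPM in CTRL and 723, 582, 749 and 638 CPM in PTX (log2 fold change -0.32, SE 0.11, edgeR adjusted p = 0.0383), and the call was lost without any 1 of CTRL libraries 1, 2 and 3 or PTX libraries 1, 2, 3 and 4 (edgeR adjusted p 0.0555 to 0.207; 0.00124 to 0.207 over all alternatives). Purb was still called with the replicate block. Apc, the scaffold of beta-catenin destruction, was at 690.3 ± 181 (CTRL) and 639.7 ± 153 CPM (PTX), with library 1 the highest in both groups (adjusted p = 0.728). Arhgap5, a GTPase-activating protein of small GTPases (edgeR adjusted p = 0.791), and Gmfb, a glia maturation factor (edgeR adjusted p = 0.203), were not called.

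The broadest and best scored peaks belonged to genes that rose, fell or were not called. Of the 10 broadest, Fosl2, Pcdh7 and Igfbp3 rose, Lsm14b, Ralyl and Lrrc1 fell, and Fat1, Tbc1d2, Fzd1 and Tle1 were not called. Pcdh7 measured 176, 166, 151 and 144 CPM in CTRL and 343, 363, 411 and 325 CPM in PTX (log2 fold change 1.18, SE 0.10, edgeR adjusted p = 1.50e-05). Igfbp3 measured 171, 165, 192 and 235 CPM in CTRL and 255, 224, 260.3 and 267 CPM in PTX (log2 fold change 0.40, SE 0.12, edgeR adjusted p = 0.0223). Its groups overlapped in CTRL library 4 and PTX library 2; the call was lost without any 1 of CTRL libraries 2 and 3 (edgeR adjusted p 0.0544 to 0.096; 2.88e-04 to 0.096 over all alternatives), and without both libraries numbered 1 (edgeR adjusted p = 0.064). The Igfbp3 call was kept with the replicate block. Lsm14b fell from 113 ± 11.6 to 77.9 ± 10.3 CPM (log2 fold change -0.53, SE 0.11, edgeR adjusted p = 0.00397), Ralyl from 94.8 ± 12.8 to 61.4 ± 7.6 CPM (log2 fold change -0.63, SE 0.12, edgeR adjusted p = 0.00244) and Lrrc1 from 20.3 ± 2.24 to 13.6 ± 2.27 CPM (log2 fold change -0.58, SE 0.14, edgeR adjusted p = 0.00881). Fat1 varied from 168 to 400.3 CPM within CTRL (adjusted p = 0.738; adjusted p = 0.0482 with the replicate block), and Fzd1 was at 27.8 ± 2.45 (CTRL) and 32.2 ± 3.22 CPM (PTX) (adjusted p = 0.124; adjusted p = 0.0311 with the replicate block, and 0.045 when CTRL library 1 was left out; 0.0311 to 0.297 over all alternatives). Tbc1d2 was barely expressed (1.11 ± 0.228 (CTRL) and 0.87 ± 0.222 CPM (PTX); adjusted p = 0.397), and Tle1 was not called (adjusted p = 0.564).

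Of the best scored peaks, that of Supt20 belonged to a gene at 25.2 ± 1.59 (CTRL) and 22.4 ± 2.38 CPM (PTX) (adjusted p = 0.212). The calls of Asf1a and Tex10 that follow were kept with the replicate block. Asf1a measured 29.9, 30.9, 31.5 and 33.8 CPM in CTRL and 33.6, 40.2, 40.7 and 42.9 CPM in PTX and rose, with CTRL library 4 and PTX library 1 at nearly the same level (log2 fold change 0.32, SE 0.09, edgeR adjusted p = 0.0196), a call lost without any 1 of CTRL libraries 2 and 3 (edgeR adjusted p 0.0515 to 0.0545; 0.00235 to 0.0545 over all alternatives). Igf1r (33 ± 5.19 (CTRL) and 32.5 ± 7.3 CPM (PTX); adjusted p = 0.931) and Elmod2 (71.5 ± 6.23 (CTRL) and 69 ± 8.67 CPM (PTX); adjusted p = 0.737) were not called. Next to the width limit, Syt10, a synaptotagmin, rose from 5.87 ± 1.22 to 16.1 ± 3.37 CPM (log2 fold change 1.46, SE 0.20, edgeR adjusted p = 2.66e-04), and Tex10, a protein of ribosome assembly, from 32.5 ± 3.49 to 42 ± 5.9 CPM (log2 fold change 0.37, SE 0.12, edgeR adjusted p = 0.0308); the Tex10 call was lost without any 1 of CTRL libraries 2, 3 and 4 (edgeR adjusted p 0.0763 to 0.101; 9.71e-04 to 0.101 over all alternatives).

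The 11 genes with 2 broad peaks did not move together. Klf4, Nr4a3, Tchh and Map3k5 rose, Med12l and Patz1 fell, and Anp32b, Bend3, Cdkn1b, Hspa2 and Igf1r were not called. Map3k5, a stress-activated kinase whose start lies in the gap between its peaks, measured 27.2, 25.9, 22.7 and 22.6 CPM in CTRL and 62, 52.7, 91 and 71.5 CPM in PTX (log2 fold change 1.49, SE 0.16, edgeR adjusted p = 6.16e-05). Med12l, a Mediator kinase module protein, measured 73.6, 54.4, 66.5 and 71.7 CPM in CTRL and 33.9, 28.3, 30.5 and 28.6 CPM in PTX (log2 fold change -1.13, SE 0.11, edgeR adjusted p = 3.62e-05). Patz1, a zinc finger factor, measured 27.7, 30.6, 32 and 32.8 CPM in CTRL and 20.4, 25.5, 26.7 and 25 CPM in PTX (log2 fold change -0.33, SE 0.10, edgeR adjusted p = 0.0285), and its call was lost without any 1 of CTRL libraries 3 and 4 or PTX libraries 1, 3 and 4 (edgeR adjusted p 0.053 to 0.121; 0.00225 to 0.121 over all alternatives). Patz1 kept its call with the replicate block. Bend3, a repressor that binds unmethylated CG-containing DNA, was at 8.69 ± 0.672 (CTRL) and 8.15 ± 1.54 CPM (PTX) and not called (adjusted p = 0.684), and neither was the cell cycle inhibitor gene Cdkn1b (adjusted p = 0.496). Hspa2, a heat shock protein, measured 68.4, 116, 96.2 and 106 CPM in CTRL and 86.5, 152, 139 and 141 CPM in PTX (adjusted p = 0.116; adjusted p = 9.24e-05 with the replicate block), and it also passed without PTX library 1 or without both libraries numbered 1 (edgeR adjusted p 0.014 and 0.00361; 9.24e-05 to 0.241 over all alternatives). Anp32b, which has near-identical copies, was low at 6.85 ± 0.591 (CTRL) and 7.81 ± 1.68 CPM (PTX) and is uncertain (adjusted p = 0.432).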

How the data were processed

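The RNA-seq files hold raw counts of reads for each Ensembl gene, as deposited by the authors in 1 table per library; rRNA-depleted total RNA entered ScriptSeq v2 libraries, per the labels' protocols. The submitters' processing notes name Bowtie2 2.2.4, TopHat2 2.0.9, HTSeq 0.6.1 and CASAVA 1.8, without roles; the strand setting of the counting is not given in the sources used here. Lines that name no gene (19.9% to 26.8% of counted alignments without a feature, 15.2% to 20.5% not unique) stayed out of library sizes and tests. The authors deposited a single peak list with a score for each peak; its caller, pooling, use of the L3mbtl1-/- samples and the meaning of the score were not given in the sources used here. Peaks were matched to genes by at least 1 bp of overlap, 464 of 470 by symbol alone and the others through a synonym that only 1 gene carries.

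The effect of picrotoxin on counts was fitted in R 4.3.3 with edgeR 4.0.16 (quasi-likelihood, TMM, filterByExpr, a term for group alone), with Benjamini-Hochberg adjustment over 15959 genes. "Rose" and "fell" mean an adjusted p under 0.05. Printed CPM use TMM-scaled library sizes, the CPM limit of the selection unscaled ones, and an SE is the log2 fold change over the root of F. Gene counts of 14524916 to 19498189 per library leave genes of a few CPM with few reads. Libraries of 1 group differed by more than sampling noise (smallest chi-square per degree of freedom 9.45). Same-numbered CTRL and PTX libraries deviated together (correlations 0.77, 0.57, 0.15 and 0.61 for numbers 1 to 4), so the numbers were taken to pair them; CTRL library 3 correlated slightly more with PTX libraries 4 and 2 (0.21 each) than with its own number. The calls reported come from the fit with group alone, which leaves these pairs out and called 6248 genes. A replicate block was the alternative fit and called 8820. The labels call the libraries biological replicates without naming litters. The fit was tested on simulated data.

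Members and gene lists were chosen with earlier results of these data known. Genes are named by rule: the 10 broadest peaks, the 5 best scores, the 8 highest CTRL levels, the 10 largest called rises and 10 largest falls without overlap, each list's members (the 4 of smallest p where over 5), genes with 2 peaks and the 3 on each side of the width limit. Alternatives were a lower width limit and one of 2000 bp, the replicate block, DESeq2 1.42.0, RLE scaling, other low-count filters and leaving out libraries, and, added after seeing the data, a peak that covers a start and the joining of peaks under 200 bp apart. The values of 1 named gene are not reported here.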

Additional observations from a re-analysis of the deposited data

Results flagged for a closer look

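In 174 groups of 4 libraries (CTRL and PTX of the named genes), 10 held a library that stood apart from its 3 companions, measured by the gap to its neighbour over the range of the group; chance gives about 1 in 20. CTRL library 1 stood apart for 3 genes: Dusp1 at 3.48 CPM, below the 9.28 to 9.87 CPM of the other controls, Sirt1 at 31.9 CPM, above 25.5 to 25.9 CPM, and Tex10 at 37.7 CPM, above 30.6 to 30.9 CPM. CTRL library 2 stood apart for 2 genes: Vgf at 125.6 CPM, above 42.2 to 50.1 CPM, and E2f5 at 19 CPM, above 15.4 to 16 CPM. PTX library 1 had 117 CPM of Hnrnpr, below 125.6 to 127.4 CPM. PTX library 2 had 487 CPM of Tcf4, below 579.8 to 586.5 CPM, and 162 CPM of Zbtb18, above 128.6 to 132.5 CPM. PTX library 4 had 8.92 CPM of Zfp395, above 5.1 to 5.66 CPM, and 55.6 CPM of Zfp518a, above 48.6 to 49.6 CPM. Of the 10 libraries, 2 lay within the range of the other group: CTRL library 1 for Tex10 and PTX library 4 for Zfp518a, a gene that was not called.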

How the results depend on the processing

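The numbers of member peaks and genes moved by more than 1.5 times with the width limit and with the demand for a covered start. Joining moved them less, to 573 peaks at 564 genes. At the lower limit tried there were 722 peaks at 695 genes, of which 143 fell; at 2000 bp or more there were 188 peaks at 186 genes, of which 65 rose and 34 fell. Where a peak had to cover a listed start, 256 peaks at 255 genes remained, 74 of which rose and 47 fell; this setting also drops genes without a promoter record. With peaks under 200 bp apart joined, 178 genes rose and 114 fell. Under the settings of the RNA fit the counts stayed within 1.5 times those reported. The replicate block gave 187 rises and 125 falls and kept all 238 calls. With it 55.3% of all 15959 tested genes were called, 4097 higher and 4723 lower in PTX. The block changed the call of no named gene other than those printed with its adjusted p. DESeq2 gave 157 rises and 81 falls among the members, beside 3496 and 3067 over all tested genes. RLE scaling gave 155 and 80, beside 3242 and 2938. Of the named genes, DESeq2 did not call Nlgn1 and Purb but called Kif5b (adjusted p = 0.0281), RLE scaling did not call Nlgn1, Purb and Slc1a2, and Ezh2 was lost without a low-count filter. Leaving out 1 library at a time gave 125 to 162 rises, 62 to 82 falls and a median log2 fold change of 0.06 to 0.14. It kept 195 to 224 of the 238 calls. Over all tested genes the same fits gave 2519 to 3356 rises, 2207 to 3199 falls and a median of -0.05 to 0.04. No named gene changed direction past the threshold under the settings run. Without strand, a genome of the build or a peak table per sample, the sequence under whole peaks and their reproducibility were not analysed here.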

Other observations

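Families with several members were noticed after their values were seen and are given as values only (means ± SD, n = 4 in each group). The Wnt receptor genes Fzd1, Fzd3 and Fzd7 all carried broad peaks. Fzd3 had 199 ± 5.14 (CTRL) and 362 ± 45.7 CPM (PTX) (edgeR adjusted p = 1.01e-04), while Fzd7 had 16.3 ± 4.8 (CTRL) and 16.7 ± 4.75 CPM (PTX) (edgeR adjusted p = 0.933). Of the atypical cadherin genes, Fat3 had 241 ± 15.3 (CTRL) and 518 ± 70.4 CPM (PTX) (edgeR adjusted p = 4.15e-05) and Fat4 113 ± 23.3 (CTRL) and 71.9 ± 12.1 CPM (PTX) (edgeR adjusted p = 0.0121), so members of that family moved in opposite directions. The Fat4 call was lost without CTRL library 1 (edgeR adjusted p = 0.056). Gclc and Gclm, the subunits of the enzyme that starts glutathione synthesis, and Gsr, which reduces glutathione, also carried broad peaks. Gclm rose (61.4 ± 4.35 (CTRL) and 78 ± 7.13 CPM (PTX); edgeR adjusted p = 0.0125), and so did Gsr (53.9 ± 6.06 (CTRL) and 75.1 ± 12.3 CPM (PTX); edgeR adjusted p = 0.0162). Gclc passed only with the replicate block (125 ± 14.5 (CTRL) and 146 ± 30.2 CPM (PTX); edgeR adjusted p = 0.261; adjusted p = 0.02 with the replicate block).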
